A study of Mus musculus with 24 samples.

Results

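Reactive astrocyte genes are transcripts whose levels climb when astrocytes respond to injury, inflammation or amyloid. The set described here held 10 of them, chosen by symbol among the 26667 genes of the count table. These were Gfap, Vim, Serpina3n, Lcn2, Cd44, Osmr, Timp1, S1pr3, Cp and Steap4. All 10 were in the table, and 9 of them were among the 18286 genes that passed the filter on low counts and were tested. Lcn2 did not pass it.

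RNA was sequenced from dentate gyrus, a hippocampal region that keeps adding granule neurons in adult life, in 24 mice of 5 groups. There were 5 libraries from wild-type (WT) C57BL6/J mice and 5 from APP/PS1 controls, both without drug or wheel. APP/PS1 mice given BCI-838 gave 4 libraries, those with a running wheel (exercise) gave 5, and those with both gave 5. BCI-838, a pro-drug whose product blocks the glutamate receptors mGluR2 and mGluR3, was dosed at 5 mg/kg daily by mouth for 1 month, and wheels were also available for 1 month. Mice without the drug were on vehicle, per the series design. APP/PS1 mice carry transgenes for amyloid precursor protein and presenilin, and form amyloid plaques. The labels and the design text give neither the age of the mice nor the promoter of the transgenes. Replicates are separate mice.

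Astrocytes support synapses, clear glutamate and potassium, and cover vessels with their endfeet. On injury, cytokines such as interleukin 6, oncostatin M and leukemia inhibitory factor act through gp130 (Il6st) and JAK kinases on STAT3, which drives Gfap and other filament and secreted genes, while interleukin 1 and tumour necrosis factor act through NF-kappaB on genes such as Lcn2. Around amyloid plaques, astrocytes with raised GFAP and Serpina3n are a common finding in mouse models.

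Total counts ran from 48656360 to 64632882 per library. App stood at 2467 to 4054 CPM (counts scaled to library size with TMM factors) in the 19 APP/PS1 libraries against 1452 to 2073 CPM in WT, and Prnp at 1712 to 2388 against 755 to 985 CPM, with no overlap. Resting astrocyte genes such as Aldoc (538 to 867 CPM) and Aqp4 (123 to 304 CPM) and the granule neuron gene Prox1 (14.3 to 175 CPM) were present in every library. Ttr, the leading transcript of choroid plexus, stood above 100 CPM in 4 libraries: replicates 2, 4 and 5 of the APP/PS1 controls and replicate 5 of the group with both treatments. Leaving out these 4 keeps only 2 APP/PS1 controls. It also shifts the 10 granule neuron genes, which summed to 422 to 1627 CPM in controls and 292 to 1501 CPM in WT. With all libraries 8 of 10 were higher in control than in WT (median log2 difference 0.095), and 8 higher with exercise than in control (0.03). Without the 4, all 10 were lower in control than in WT (-0.52) and all 10 higher with exercise (0.67). The part of these genes in values without the 4 was not tested. Genes of the dorsal midbrain, a neighbouring region, summed to 35.4 to 62.75 CPM in the BCI-838 libraries and to 4.07 to 64.64 CPM in the others. For comparisons with APP/PS1 controls, values without the 4 high-Ttr libraries are given beside single-gene differences that changed sign or moved by over 1.5 times, and beside most list counts; the midbrain genes were handled as a covariate only, with no library left out for them.

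The promoters of Gfap, Serpina3n and Steap4 are shown because these genes are described most closely below, and because 2 of them hold the letters of a STAT site. Each window is 250 bases, 5′ to 3′ on the strand of the gene, from RefSeq's GRCm38.p6 tables, which matched all 10 genes. Capitals mark TTCNNNGAA, the palindrome that STAT dimers bind, and bases are numbered from the RefSeq transcription start with no position 0.

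Gfap promoter, chr11:102897194-102897443, minus strand: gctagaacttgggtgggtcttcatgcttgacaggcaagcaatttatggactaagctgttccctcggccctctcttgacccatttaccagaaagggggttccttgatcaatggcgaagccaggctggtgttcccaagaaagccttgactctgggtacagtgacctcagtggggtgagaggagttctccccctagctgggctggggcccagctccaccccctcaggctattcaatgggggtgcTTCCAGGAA
Serpina3n promoter, chr12:104406458-104406707, plus strand: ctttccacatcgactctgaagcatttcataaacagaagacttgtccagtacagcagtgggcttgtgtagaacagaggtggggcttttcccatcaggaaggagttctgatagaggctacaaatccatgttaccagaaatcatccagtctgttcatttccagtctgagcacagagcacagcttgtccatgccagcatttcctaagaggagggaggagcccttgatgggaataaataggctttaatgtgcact
Steap4 promoter, chr5:7960222-7960471, plus strand: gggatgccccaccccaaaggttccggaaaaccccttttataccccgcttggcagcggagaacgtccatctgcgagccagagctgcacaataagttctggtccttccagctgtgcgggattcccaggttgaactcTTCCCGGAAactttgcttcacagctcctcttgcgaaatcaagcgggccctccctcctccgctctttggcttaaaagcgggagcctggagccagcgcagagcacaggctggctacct

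The match in Gfap spans positions -2 to 7 around the start, and that in Steap4 positions -116 to -108. The search covered both strands from 250 bases before to 50 after each start. TTCNNNGAA was found in 2 of the 10 genes and in 8.3% of 32851 such windows. TGANTCA, the AP-1 letters, was found in Cp and Osmr and in 7.81% of windows. A kappaB motif was found in Vim and Steap4 and in 8.46% of windows. In Vim 2 of its 3 kappaB matches overlapped each other, and no STAT, AP-1 and kappaB matches overlapped. A match describes letters only, and the assay did not measure binding.

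The 10 genes differed widely in level. Per kilobase of merged exons, averaged over 24 libraries, Gfap led with 122.8 CPM per kb, followed by Serpina3n with 21.65 and Vim with 6.14. S1pr3 (1.76), Timp1 (1.47) and Cp (1.27) came next on that scale. Cd44 (0.447), Osmr (0.36), Steap4 (0.116) and Lcn2 (0.0275) were lowest. In CPM, 98.8% of tested genes lay below Gfap and 11.3% below Steap4.

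Gfap (ENSMUSG00000020932.14, chr11:102887336-102900912, minus strand, GRCm38) encodes the intermediate filament protein whose accumulation defines reactive astrocytes. It stood at 389, 339, 298, 516 and 383.5 CPM in WT libraries 1 to 5 and at 522, 542, 369, 543 and 423.5 CPM in APP/PS1 controls. BCI-838 libraries held 566.5, 681, 717 and 715 CPM, exercise libraries 565, 430.5, 461.5, 395 and 417 CPM. The libraries with both treatments held 1113, 313, 722, 532 and 479 CPM. Thus all 4 BCI-838 libraries lay above all 5 APP/PS1 controls, while the group with both treatments held the highest level of the series and one of the lowest. Means were 385 ± 82.0 CPM in WT, 454 ± 66.8 in exercise, 480 ± 79.1 in APP/PS1 controls, 632 ± 306 in both and 670 ± 71.0 in BCI-838 (SD, n = 5, and n = 4 for BCI-838). Each group overlapped its neighbour in this order.

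Across the 4 APP/PS1 groups Gfap was 1.43-fold higher than in WT, a log2 difference of 0.52 ± 0.19 (SE). This did not pass adjustment over all genes (edgeR quasi-likelihood test, adjusted p = 1.00). In mice without drug or wheel the difference was 0.32 ± 0.23, or 0.21 without the high-Ttr libraries. BCI-838 against APP/PS1 control gave 0.48 ± 0.24, a 1.40-fold difference (adjusted p = 0.502, and 0.223 to 0.961 over the alternatives). Having every library of 1 group above every library of the other, in this direction, held for 2.51% of tested genes in that comparison. Without the high-Ttr libraries the BCI-838 difference was 0.59, and with the dorsal midbrain genes as a covariate 0.54. In the same comparison 13 of 14 resting astrocyte genes were higher with BCI-838, with a median of 0.17. None was called, where edgeR called 0% of all genes. Without the high-Ttr libraries 7 of these 14 genes were higher, with a median of 0.02. Their summed level was 8560 to 8944 CPM with BCI-838 and 6740 to 9215 CPM in controls, and their part in the Gfap difference was not tested. Within groups, over 24 libraries, log2 Gfap against their log2 sum gave Pearson r = -0.045 and Spearman rho = 0.004 (permutation p = 0.836 and 0.987). In bulk tissue, more astrocytes and more RNA per astrocyte cannot be told apart. Exercise against control gave -0.08 ± 0.23, or 0.02 without the high-Ttr libraries. Both treatments against control gave 0.40 ± 0.23. It rested on replicate 1, without which it was 0.08, and the high-Ttr libraries left out gave 0.59.

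Vim (ENSMUSG00000026728.9, chr2:13573927-13582826, plus strand) encodes vimentin, a filament protein of immature and reactive astrocytes that vessel and meningeal cells also make. WT libraries held 31.0, 19.0, 18.4, 23.7 and 21.2 CPM, and APP/PS1 controls 31.0, 28.3, 27.5, 46.7 and 28.1 CPM. Of these controls all but one lay below 32 CPM, and 4 of 5 WT libraries lay below every control. With BCI-838 the levels were 22.02, 36.9, 33.0 and 35.7 CPM, with exercise 36.9, 44.9, 21.45, 29.35 and 26.7 CPM, and with both 30.0, 19.4, 29.6, 31.2 and 27.1 CPM. All treated groups overlapped the controls. The APP/PS1 controls stood 1.43-fold above WT, a log2 difference of 0.51 ± 0.20 (adjusted p = 1.00), and the 4 APP/PS1 groups together 0.44 ± 0.16 above it (adjusted p = 1.00). Neither passed. The first value was 0.37 without the high-Ttr libraries, 0.38 with choroid plexus genes as a covariate and 0.35 without control replicate 4. Treatment differences from control were small: -0.02 ± 0.21 for BCI-838, -0.02 ± 0.20 for exercise and -0.24 ± 0.20 for both. Without the high-Ttr libraries they were 0.13, 0.12 and -0.08.

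**Figure D1:**
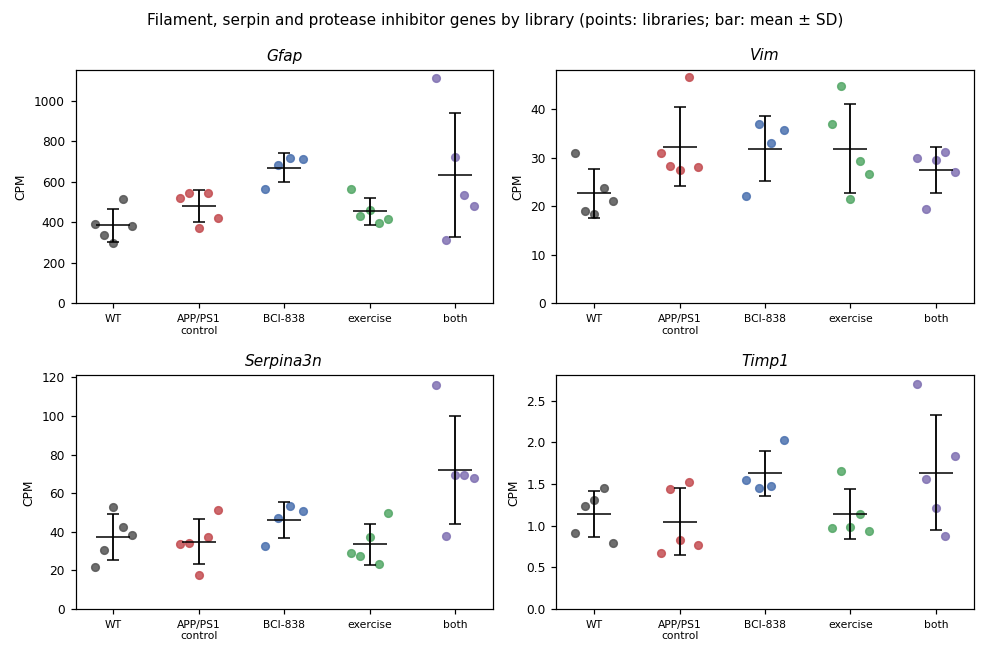
Levels of Gfap, Vim, Serpina3n and Timp1 in CPM (y axis, from 0) in the 5 groups (x axis). Points are libraries, and bars show the mean ± SD. The 4 BCI-838 libraries sit above the 5 APP/PS1 controls for Gfap, and replicate 1 of the group with both treatments is the highest point for Gfap (1113 CPM), Serpina3n (116 CPM) and Timp1 (2.70 CPM).

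Serpina3n (ENSMUSG00000021091.8, chr12:104406729-104414329, plus strand) encodes a secreted serine protease inhibitor that astrocytes and oligodendrocytes make under inflammation. WT libraries held 21.7, 30.5, 52.8, 42.6 and 38.45 CPM, and APP/PS1 controls 33.85, 34.4, 17.9, 37.6 and 51.1 CPM. BCI-838 gave 32.4, 47.15, 53.6 and 50.8 CPM, and exercise 29.25, 27.35, 37.4, 23.45 and 49.97 CPM. With both treatments the levels were 116, 37.7, 69.3, 69.3 and 67.8 CPM. Thus 4 of the 5 libraries with both treatments lay above every other library of the series, and the other one, replicate 2, lay within the range of the controls. Means were 33.5 ± 10.5 CPM for exercise, 34.95 ± 11.8 for APP/PS1 control, 37.2 ± 11.8 for WT, 46.0 ± 9.42 for BCI-838 and 72.02 ± 28.1 for both. The first 4 groups overlapped one another throughout.

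In the group with both treatments Serpina3n was higher than in the APP/PS1 controls, and the difference did not pass in edgeR. Both treatments against APP/PS1 control gave a log2 difference of 1.04 ± 0.29, or 2.06-fold (adjusted p = 0.27), and both against exercise alone 1.11 ± 0.29, or 2.15-fold (adjusted p = 0.131). Neither passed, and edgeR called 0% of genes in either comparison. DESeq2 called Serpina3n in both, at adjusted p = 0.045 and 0.0141. It called 0.449% of genes in the first comparison and 2.25% in the second. Limma voom with quality weights called Serpina3n in the second alone (adjusted p = 0.0448, with 5.41% of genes called). The difference from control was 1.503 without the high-Ttr libraries, 0.77 with the midbrain covariate and 0.80 without replicate 1 of both. Without replicate 2 of both, edgeR called Serpina3n against exercise at 1.27 and adjusted p = 0.0474. That replicate is the library of its group within the range of the controls. Leaving it out also raised the number of all genes called, as given in the last section. Against BCI-838 alone the difference was 0.65 ± 0.31 (adjusted p = 0.341) and was -0.04 with the midbrain covariate. Midbrain genes summed to 35.4 to 62.75 CPM with BCI-838 and 4.07 to 26.75 CPM with both, without overlap. In this comparison treatment and the midbrain covariate cannot be told apart. The interaction of drug and wheel was 0.71 ± 0.42 (adjusted p = 0.604), and -0.03 with that covariate, or 0.30 without the high-Ttr libraries. In WT, APP/PS1 control and exercise mice the gene showed no genotype or wheel difference beyond its spread: -0.09 ± 0.29 for genotype, or -0.53 without the high-Ttr libraries, and -0.06 ± 0.29 for exercise, or 0.37 without them. BCI-838 alone gave 0.40 ± 0.30 against control, and 0.83 without the high-Ttr libraries. The midbrain genes summed to 4.07 to 26.75 CPM with both treatments and to 6.59 to 46.26 CPM in control, which overlapped. With them as a covariate, the Serpina3n difference between these groups was 0.77 where the main fit gave 1.04. Their part in the result was tested in no other way.

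Microglial genes stood beside the Serpina3n difference. Of 10 homeostatic microglia genes 9 were higher with both treatments than in control, with a median of 0.24. None was called, where edgeR called 0% of all genes. At an unadjusted p under 0.05 stood 7 of the 10 against 10.6% of all genes, and 0 of 10 without the high-Ttr libraries, where 8 were higher with a median of 0.11. Their summed level was 334 to 467.5 CPM with both and 318 to 363 CPM in control, none was at 0, and their part in the result was not tested. Within groups, log2 Serpina3n against their log2 sum gave Pearson r = 0.487 (permutation p = 0.0367, adjusted p = 0.287). Other lists did not move this way in the same comparison. Higher with both were 7 of 14 resting astrocyte genes (median 0.01), 3 of 8 oligodendrocyte genes (-0.02) and 6 of 12 plaque microglia genes (-0.13). Without the high-Ttr libraries these were 3 (-0.16), 0 (-0.37) and 5 (-0.09). Reads could also be shared with the Serpina3 paralogs, since how the authors treated reads with several matches is not given. The 10 paralogs in the table summed to 0.165 to 1.23 CPM per library, far below Serpina3n.

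Timp1 (ENSMUSG00000001131.11, chrX:20870166-20874735, plus strand) encodes a secreted inhibitor of matrix metalloproteinases. It stood at 0.9095, 1.235, 1.308, 1.448 and 0.7896 CPM in WT and at 0.670, 1.44, 0.827, 1.52 and 0.773 CPM in APP/PS1 controls. BCI-838 gave 1.55, 1.46, 1.48 and 2.03 CPM, exercise 0.974, 1.66, 0.990, 1.147 and 0.933 CPM, and both treatments 2.70, 1.56, 1.21, 0.882 and 1.835 CPM. Of the BCI-838 libraries 2 lay above all 5 controls, and the other 2 lay between the 2 highest controls. The log2 difference from control was 0.64 ± 0.30 with BCI-838 (adjusted p = 0.466) and 0.65 ± 0.28 with both (adjusted p = 0.429), and 0.13 ± 0.28 with exercise. None passed. Without the high-Ttr libraries, which include the 2 highest controls, these became 1.12, 1.09 and, for exercise, 0.61. Without replicate 1 of both the second was 0.39.

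Lcn2 (ENSMUSG00000026822.14, chr2:32384633-32388252, minus strand) encodes lipocalin 2, a secreted iron-siderophore carrier that reactive astrocytes and neutrophils make. Its raw counts were 8, 4, 4, 4 and 4 in WT, 16, 2, 10, 4 and 2 in APP/PS1 controls, and 0 in all 4 BCI-838 libraries. Exercise libraries held 8, 2, 6, 0 and 2 counts, and libraries with both treatments 2, 4, 4, 4 and 8. Among tested genes, which leave out Lcn2, 2.2% had every BCI-838 library below every control. For 4.3% every BCI-838 library lay below every library with both treatments. All 19 counts above 0 were even numbers, as were 68.5% of all counts from 1 to 20 in the table against 50.2% of counts over 1000, so a count of 2 may not be 2 separate observations. Over the BCI-838 group a floor of 3 counts allows up to 0.0129 CPM. Against that floor, taking each count as 1 observation, the observed sum was 8.99-fold higher in APP/PS1 controls (34 counts) and 7.02-fold in WT (24 counts). With both treatments it was 6.04-fold higher (22 counts) and with exercise 4.89-fold (18 counts, 1 library at 0). If each read pair gave 2 counts, the floor would be 2 times as high and these ratios lower by the same factor. The floor covers only the counting error of the BCI-838 group, and that of the other groups is not included. When the filter was dropped, edgeR gave Lcn2 an adjusted p = 0.178 for BCI-838 against control and an adjusted p = 0.198 for both treatments against BCI-838, and neither passed. Neutrophil genes were near the floor too: the 8 genes summed to 0.259 to 1.23 CPM per library, and Elane was at 0 in every group but BCI-838.

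**Figure D2:**
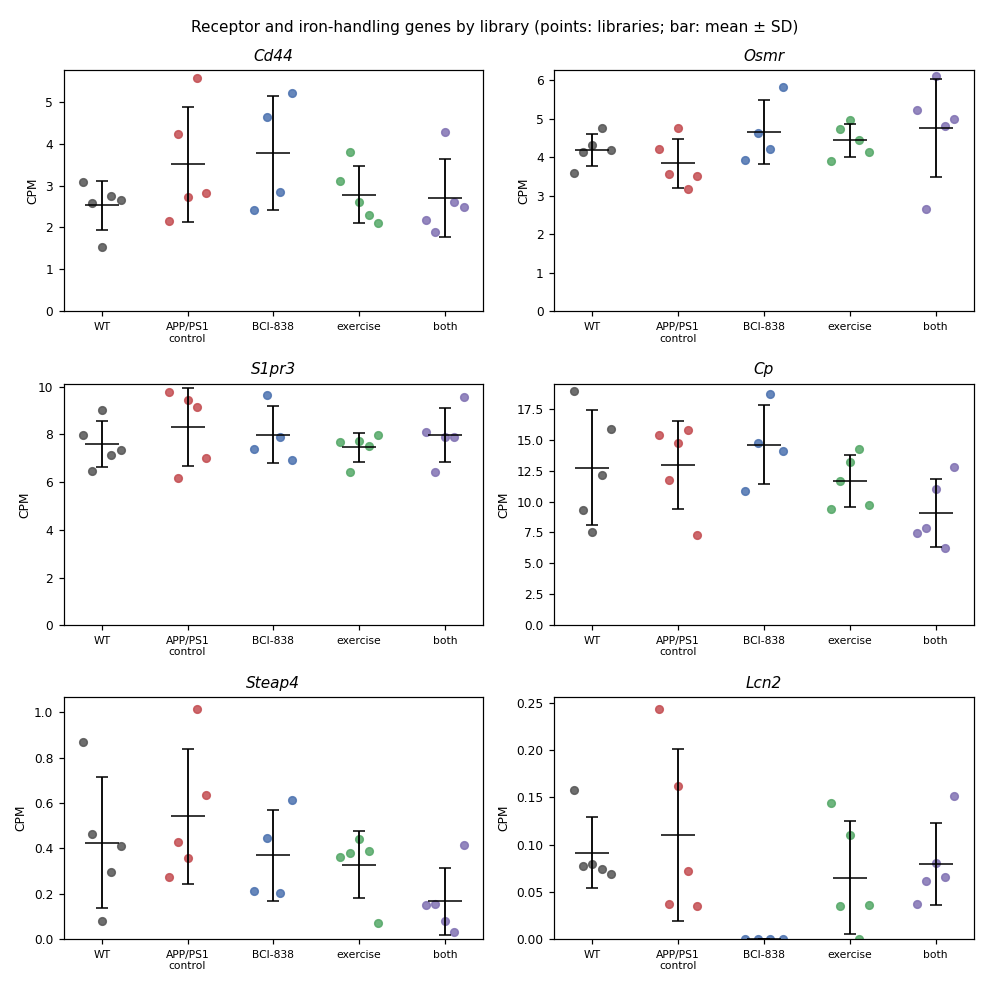
Levels of Cd44, Osmr, S1pr3, Cp, Steap4 and Lcn2 in CPM (y axis, from 0) in the 5 groups (x axis). Points are libraries, and bars show the mean ± SD. All 4 BCI-838 libraries are at 0 for Lcn2, and 4 of 5 libraries with both treatments sit below 0.16 CPM for Steap4.

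Cd44 (ENSMUSG00000005087.17, chr2:102811141-102901665, minus strand) encodes the receptor for hyaluronan and osteopontin. Its levels were 1.55 to 3.08 CPM in WT, 2.16 to 5.56 in APP/PS1 controls, 2.42 to 5.20 with BCI-838, 2.10 to 3.81 with exercise and 1.89 to 4.28 with both. Every group overlapped every other. APP/PS1 controls stood 0.47 ± 0.28 above WT on the log2 scale (adjusted p = 1.00), and -0.05 without the high-Ttr libraries, so the sign changed when control replicates 2, 4 and 5 were left out. Osmr (ENSMUSG00000022146.12, chr15:6813577-6874969, minus strand) encodes the oncostatin M receptor subunit, which pairs with gp130. Its group means ran from 3.84 ± 0.631 CPM in APP/PS1 controls to 4.75 ± 1.28 CPM with both. S1pr3 (ENSMUSG00000067586.4, chr13:51408639-51422797, plus strand) encodes a receptor for sphingosine 1-phosphate. Its group means lay between 7.46 ± 0.606 CPM in exercise and 8.32 ± 1.63 CPM in APP/PS1 controls. With all libraries, neither Osmr nor S1pr3 had an unadjusted p under 0.05 in any of 8 comparisons. The largest Osmr difference was 0.31 ± 0.17, for both treatments against control, and it was 0.07 without the high-Ttr libraries. Osmr in APP/PS1 controls against WT was -0.13 ± 0.17, and 0.09 without them. The largest S1pr3 difference was -0.16 ± 0.13, for exercise against control, and it was -0.37 without them. Both treatments against control gave -0.06 ± 0.13 for S1pr3, and -0.34 without the high-Ttr libraries. Without those libraries the S1pr3 values had unadjusted p = 0.0158 for exercise and 0.0296 for both in edgeR (adjusted p = 0.883 and 0.418). Exons of S1pr3 share 45 bases with Gm32834 on the opposite strand, and whether counting used strand is not given.

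Cp (ENSMUSG00000003617.16, chr3:19957054-20009145, plus strand) encodes ceruloplasmin, the copper ferroxidase that astrocytes carry on their endfeet and that loads exported iron onto transferrin. WT libraries held 18.9, 9.30, 7.55, 12.1 and 15.9 CPM, APP/PS1 controls 15.4, 11.7, 14.7, 15.8 and 7.28 CPM, and BCI-838 libraries 10.9, 14.8, 18.7 and 14.1 CPM. Exercise gave 9.41, 11.7, 13.2, 14.3 and 9.72 CPM, and both treatments 7.48, 7.88, 11.04, 6.23 and 12.8 CPM. The group with both treatments had the lowest mean, 9.09 ± 2.74 CPM, and still overlapped every other group. Its log2 difference was -0.52 ± 0.25 from control (adjusted p = 0.47) and -0.69 ± 0.26 from BCI-838 (adjusted p = 0.236). Neither passed. With the midbrain covariate these became -0.28 and -0.20, and the first was -0.88 without the high-Ttr libraries. For the second, treatment and midbrain content cannot be told apart, since midbrain sums of the groups did not overlap. Cp shares 108 exon bases with Hps3 on the opposite strand.

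Steap4 (ENSMUSG00000012428.9, chr5:7960457-7982213, plus strand) encodes a metalloreductase that reduces iron and copper before uptake. Its levels were 0.87, 0.463, 0.0793, 0.297 and 0.412 CPM in WT and 0.274, 0.426, 0.357, 1.02 and 0.633 CPM in APP/PS1 controls. BCI-838 libraries held 0.212, 0.446, 0.202 and 0.614 CPM, and exercise libraries 0.361, 0.381, 0.44, 0.388 and 0.0717 CPM. With both treatments the levels were 0.148, 0.155, 0.0807, 0.0327 and 0.416 CPM. Of these, 4 lay below all 5 controls, and replicate 5 lay among them. The raw counts behind them were 2 to 22 per library with both treatments and 18 to 56 in control, and 23 of the 24 counts of Steap4 were even. The fitted log2 difference was -1.69 ± 0.61, or 3.23-fold lower (adjusted p = 0.342, and 0.182 to 0.799 over the alternatives). It was -0.82 with the choroid plexus covariate and -2.35 without replicate 5 of both. APP/PS1 control against WT gave 0.35 ± 0.57, and -0.43 without the high-Ttr libraries.

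Genes of vessel walls and meninges stood beside the low Cp and Steap4 values. Of 15 mural and fibroblast genes 12 were lower with both treatments than in control, with a median log2 difference of -0.38, and 6 stood at an unadjusted p under 0.05 against 10.6% of all genes. The median was -0.70 without the high-Ttr libraries, with 13 of 15 lower. All 15 were lower than with exercise alone (median -0.56) and than with BCI-838 alone (median -0.74). None was called, where edgeR called 0% of all genes. Their summed level was 144 to 217 CPM with both, 206 to 337 in control, 208 to 298 with BCI-838, 200.1 to 370.4 with exercise and 150.5 to 298 in WT, with no gene at 0. Across the 24 libraries, as deviations from the group means, log2 Cp followed the log2 sum of these genes, with Pearson r = 0.811 (p = 2e-05) and Spearman rho = 0.828 (p = 1e-05, the smallest that 100000 permutations within groups can give). Adjusted over 70 pairs of a gene and a list, the permutation p-values were p = 0.0014 and p = 0.0007. The relation held at r = 0.762 without the 2 farthest libraries and at 0.786 without the high-Ttr libraries. It was the only one of the 70 to pass. Steap4 against the same sum gave r = 0.537 and rho = 0.447 (permutation p = 0.0178 and 0.0474, adjusted p = 0.249 and 0.273), and r = 0.323 without the 2 farthest libraries. The part of these genes in the Cp and Steap4 values was not tested.

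**Figure D3:**
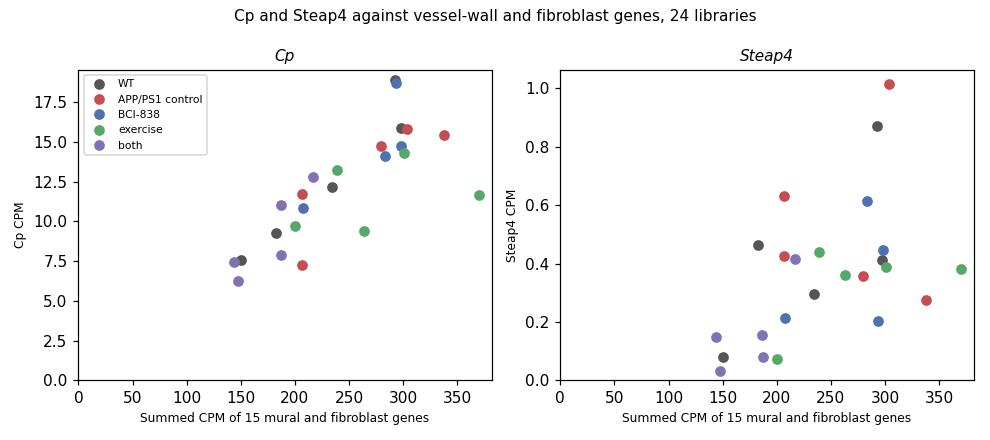
Cp (left) and Steap4 (right) in CPM against the summed CPM of 15 mural and fibroblast genes. Each point is 1 of the 24 libraries, coloured by group, and axes start at 0. Cp rises with the sum (r = 0.811 on log2 deviations from group means), and the 5 libraries with both treatments lie at the low end of the sum, 144 to 217 CPM.

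The set was then read comparison by comparison against all tested genes. In APP/PS1 control against WT, edgeR called 0 of the 9 genes and 0.0109% of all genes. At an unadjusted p under 0.05 stood 1 of the 9 (Vim) and 2.76% of all genes. The median log2 difference of the 9 was 0.13, and medians over all genes lay between -0.02 and 0.01 in the 8 comparisons. For the mean of the 4 APP/PS1 groups against WT, 0 of 9 were called against 0.0109% of all genes, and 2 (Gfap and Vim) were under 0.05 unadjusted against 3.66%. Of the 9, 7 were higher, with a median of 0.23. DESeq2 and voom called none of the 9 in either comparison.

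BCI-838 against control gave 0 of 9 called against 0% of all genes, 1 (Timp1) under 0.05 unadjusted against 10.2% of all genes, and a median of 0.17 with 6 higher. Exercise against control gave 0 of 9 called against 0.00547% of all genes, none under 0.05 unadjusted against 5.44%, and a median of -0.08 with 7 lower. DESeq2 and voom called none of the 9 in these either. Both treatments gave 0 of 9 called by edgeR against control, exercise or BCI-838, where 0% of all genes were called. Against control 4 of 9 stood under 0.05 unadjusted, against 10.6% of all genes. These 4 did not move one way: Serpina3n and Timp1 were higher, Cp and Steap4 lower, and the median was -0.06. Both against exercise gave 2 of 9 (Serpina3n and Gfap) against 17.6%, and both against BCI-838 gave 2 of 9 (Serpina3n and Cp) against 14.3%. Gfap was 0.48 ± 0.23 above exercise (adjusted p = 0.276), and 0.18 without replicate 1 of both. The interaction gave none under 0.05 unadjusted against 9.6%, and 0 of the 9 called by edgeR (0% of all genes), DESeq2 or voom. Without the high-Ttr libraries the median of the 9 was 0.09 for genotype, 0.12 for the pooled genotype, 0.23 for BCI-838, 0.06 for exercise and 0.07 for both against control, so the last pair changed sign, and edgeR called none of the 9. The comparisons against APP/PS1 control share those 5 libraries, and those with both treatments share that group.

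**Figure D4:**
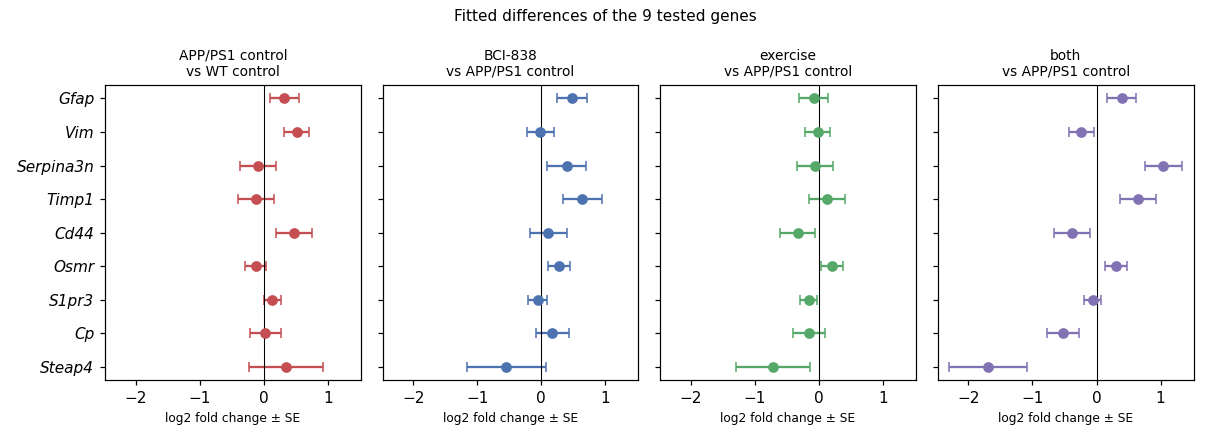
Fitted log2 fold changes (x axis) of the 9 tested genes (y axis) in 4 comparisons, one panel each. Points are edgeR estimates and bars are ± 1 SE. Exercise against control lies between -0.71 and 0.21 with no point past the test, and both treatments against control shows Serpina3n at 1.04 and Steap4 at -1.69. Without the high-Ttr libraries the ends of the exercise range, Steap4 and Osmr, were 0.06 and -0.01. Cd44 also changed sign without them, to 0.19 for exercise and 0.17 for both. For BCI-838 Steap4 became 0.23 and Cp -0.04.

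Other genes that mark astrocyte reactivity gave no call, where edgeR called at most 0.0109% of all genes in any comparison. Of the pan-reactive genes, Aspg stood at 4.00 ± 0.704 CPM in WT and 3.97 ± 0.802 in APP/PS1 controls, Hspb1 at 5.04 ± 1.84 and 6.07 ± 1.31, and the chemokine Cxcl10 at 0.188 ± 0.0777 and 0.429 ± 0.523. Of 12 listed genes known as A1-like, 11 were tested. In APP/PS1 controls against WT 10 of the 11 were higher with a median of 0.09, where 8670 of the 18286 tested genes were higher. With both treatments 10 of the 11 were lower than in control (median -0.17), 7 lower than with exercise (-0.21) and 7 lower than with BCI-838 (-0.05), where 9392, 9756 and 9372 of all genes were lower. Without the high-Ttr libraries the first pair of counts were 8 higher (0.34) and 8 lower (-0.31). Of 12 microglial genes induced around plaques 8 stood above their WT level in APP/PS1 controls, with a median of 0.08, or 0.12 without the high-Ttr libraries, and summed levels of 161.5 to 200.3 and 159.5 to 195.8 CPM. None of the 11 A1-like genes was called in any comparison. With BCI-838 the interferon-induced GTPase Iigp1 stood at 1.41 ± 0.367 CPM against 2.75 ± 0.752 in control (log2 difference -0.96 ± 0.36, adjusted p = 0.357, and -0.55 without the high-Ttr libraries). Of the 11 tested A2-like genes 10 were higher with both treatments than with exercise (median 0.25), 8 higher than in control (0.10) and 7 higher than with BCI-838 (0.07), and 9 were lower with exercise than in control (-0.19). Without the high-Ttr libraries these counts were 9 (0.21), 6 (0.03), 5 (-0.01) and 6 (-0.01). Their leading gene was Ptx3, a pentraxin, at 0.504 ± 0.267 CPM in control, 1.08 ± 0.421 with BCI-838, 0.576 ± 0.157 with exercise and 1.13 ± 0.485 with both. Its log2 difference from control was 1.11 ± 0.39 with BCI-838 (adjusted p = 0.322) and 1.16 ± 0.37 with both (adjusted p = 0.319), or 1.72 and 1.71 without the high-Ttr libraries.

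Some inducing cytokines were scarce, while the 12 listed ligand genes together summed to 62.6 to 110.8 CPM per library. Il6 (up to 0.172 CPM), Osm (up to 0.253) and Tnf (up to 0.246) were at 0 in some libraries, and Il1b reached 0.713 CPM. None of the 10 tested ligand genes was called in any comparison, where edgeR called at most 0.0109% of all genes. With BCI-838 the smallest p among them belonged to Tgfb2, a transforming growth factor, at 22.6 ± 5.56 CPM against 44.9 ± 19.2 in control (-0.99 ± 0.36, adjusted p = 0.347), and the difference was -0.11 without the high-Ttr libraries. Levels on the receptor and kinase side varied from gene to gene. Il6st stood at 59.9 to 108 CPM and Stat3 at 48.5 to 80.0 CPM, and the Stat3 log2 difference lay between -0.06 ± 0.12 and 0.02 ± 0.12 in all 8 comparisons, and between -0.17 and 0.20 without the high-Ttr libraries. Socs3, the feedback inhibitor that STAT3 induces, was 1.25 ± 0.629 CPM in control and 0.690 ± 0.222 with both (-0.86 ± 0.33, adjusted p = 0.375). Jak1 was 219 ± 22.4 CPM with both against 179 ± 25.6 with exercise (0.29 ± 0.09, adjusted p = 0.141). The interleukin 1 receptor gene Il1r1 was 8.76 ± 2.29 CPM with BCI-838 and 21.3 ± 9.50 in control (-1.28 ± 0.51, adjusted p = 0.384), and -0.50 without the high-Ttr libraries. Nfkbia, the NF-kappaB inhibitor, was 19.3 ± 5.25 CPM with exercise and 14.4 ± 1.58 in control (0.42 ± 0.15, adjusted p = 0.585). None of the 16 genes of this list was called in any of the 8 comparisons, against at most 0.0109% of all genes.

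Partners of the set were also read. Of 26 tested partners none was called in any comparison, where edgeR called at most 0.0109% of all genes. Slc40a1, the iron exporter ferroportin that works with ceruloplasmin, was 7.53 ± 0.739 CPM in control, 9.16 ± 0.571 with BCI-838, 9.92 ± 0.596 with exercise and 9.38 ± 0.985 with both. Its log2 differences from control were 0.28 ± 0.10, 0.40 ± 0.09 and 0.32 ± 0.09, at adjusted p = 0.316, 0.252 and 0.287. These 3 comparisons share the same controls, and Slc40a1 in WT was 8.51 ± 1.02 CPM. With BCI-838 the value was 0.19 without the high-Ttr libraries. Steap1, a relative of Steap4, was 1.23 ± 1.21 CPM in control and 0.136 to 0.196 CPM on average in the other groups. Its differences were 3.12 ± 0.90 for genotype and -3.14 ± 0.98 for BCI-838 against control (adjusted p = 1.00 and 0.272), and 0.16 and -0.19 without the high-Ttr libraries. Steap2 was 13.6 ± 2.97 CPM with both and 28.3 ± 6.21 with BCI-838 (-1.06 ± 0.29, adjusted p = 0.185). Mmp2, a metalloproteinase, was 3.53 ± 0.526 CPM in control and 2.50 ± 0.355 with both (-0.50 ± 0.15, adjusted p = 0.301). The filament gene Des was 3.36 ± 0.748 CPM with exercise and 1.47 ± 0.300 with both (-1.19 ± 0.29, adjusted p = 0.115), in the comparison where the muscle-type mural genes Acta2 (-1.74 ± 0.41) and Tagln (-1.21 ± 0.35) were also lower and not called. Nes, which encodes nestin, stood between 11.4 ± 2.29 CPM with both and 13.6 ± 2.32 with exercise.

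Among the 10 genes themselves, 1 of 45 pairs moved together within groups after adjustment. Vim and Cd44 gave Pearson r = 0.686 and Spearman rho = 0.697 over 24 libraries (permutation p = 0.00059 and 0.00048, adjusted p = 0.0266 and 0.0216). The relation was r = 0.584 without the 2 farthest libraries and 0.673 without the high-Ttr libraries. Against the log2 sum of 12 endothelial genes, Vim gave r = 0.511 and Cd44 r = 0.27 (permutation p = 0.0217 and 0.266, adjusted p = 0.253 and 0.494). Without the high-Ttr libraries these were 0.894 and 0.805. The part of vessel genes in the Vim and Cd44 relation was not tested. Gfap and Vim gave r = 0.487 and rho = 0.57 (permutation p = 0.0104 and 0.00481, adjusted p = 0.234 and 0.108). Gfap and Serpina3n gave r = 0.524 and rho = 0.415 (permutation p = 0.0282 and 0.0703, adjusted p = 0.254 and 0.527), and r = 0.195 without the 2 farthest libraries, so this relation rested on those. Without the high-Ttr libraries it was r = 0.588. Serpina3n and Timp1 gave r = 0.187.

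The genes most like each of the 10, by Pearson r of log2 CPM deviations over 24 libraries and 15129 named genes, were as follows. They share libraries and depth, and r is given as a description. Cp was closest to Slc7a11 (0.887), the cystine transporter. Vim was closest to Tspo (0.86), a mitochondrial translocator protein gene raised in glial activation, and to Lamb2 (0.858), a laminin of vessel basement membranes. Cd44 was closest to Hspb8 (0.848) and Cdc42bpg (0.834), and Gfap to Mtrf1 (0.821) and Serpinf2 (0.746). Serpina3n was closest to Zmat5 (0.836) and Dyrk3 (0.834). Timp1 was closest to Muc6 (0.862) and Mst1 (0.795), S1pr3 to Rab3il1 (0.847) and Ltbp1 (0.808), and Osmr to Efcab5 (0.694) and Mpeg1 (0.684). Steap4 was closest to Anxa1 (0.804) and Dnahc11 (0.798), and Lcn2 to Arhgef19 (0.746) and Nfkb2 (0.723).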

How the data were processed

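RNA-seq libraries of 24 mice were grouped by their labels. The authors deposited whole-number read counts per gene. The submitters' processing notes name STAR, HTSeq, DESeq and mm10, without versions, and strand handling is not stated there. A second deposited table of normalised values was not used.

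Genes were filtered with filterByExpr (minimum count 10, minimum total 15), and scaled with TMM. A single edgeR model (version 4.0.16, R 4.3.3) held all 5 group means, and contrasts were tested by its robust quasi-likelihood test. Fold changes are log2. P-values were adjusted by Benjamini-Hochberg over all 18286 genes, and a gene was called at an adjusted p under 0.05. Log2 CPM for relations used a prior count of 2. Gene coordinates are from the GENCODE annotation of GRCm38, promoters from RefSeq.

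The alternatives were DESeq size factors, no filter, DESeq2 1.42.0, limma 3.58.1 voom with quality weights, the replicate number as a block, the compared groups alone, leaving out the 4 libraries over 100 Ttr CPM, a choroid plexus covariate, and leaving out each library. A dorsal midbrain covariate was chosen after seeing the data. The genes and lists were chosen with earlier results of these data known. All 10 genes are named, and of each list some of the 3 genes with the smallest p in a comparison, or partners and markers by level. For each of the 10 genes the 2 most alike are named, leaving out predicted genes; 1 of these is not reported here.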

Additional observations from a re-analysis of the deposited data

Results flagged for a closer look

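In 4 of 49 groups of levels with some spread, 1 library stood far from the rest of its group by Dixon's ratio, where chance flags about 1 in 20 groups. Vim stood at 46.7 CPM in APP/PS1 control replicate 4, against 27.5 to 31.0 CPM in the other controls. Timp1 stood at 2.03 CPM in BCI-838 replicate 4, against 1.46 to 1.55 CPM in the others. Steap4 stood at 0.0717 CPM in exercise replicate 5, on 4 counts, against 0.361 to 0.44 CPM in the others. Lcn2 stood at 0.158 CPM in WT replicate 1, on 8 counts where the other WT libraries held 4 each.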

How the results depend on the processing

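Of 72 differences of the 9 tested genes, none changed sign while called in either fit. Of 1548 alternative values, 118 changed sign with neither value called, and 4 were called where the edgeR fit had none, all of them Serpina3n. DESeq2 called 1 of the 9 in both against control and 1 in both against exercise, voom 1 in the latter, and leaving out 1 library gave 1 at most in both against exercise. Over all genes DESeq2 called 14 for APP/PS1 control against WT, 170 for BCI-838, 61 for exercise and 82 for both against control, 364 for both against exercise, 256 for both against BCI-838 and 77 for the interaction. Voom called 425 for BCI-838, 0 for exercise, 989 for both against exercise and 876 for both against BCI-838. With the compared groups alone the counts were 1 for genotype, 9 for BCI-838, 0 for exercise and 102 for both against BCI-838. For exercise the 1 called gene was lost (0) without the high-Ttr libraries and with the choroid plexus covariate. With the replicate block the counts were 0 for exercise and 1 for both against control, and no member was called. The labels do not say whether replicate numbers pair mice. Of 46 same-numbered pairs, 10 correlated over 0.1 (r from -0.382 to 0.395). Pairs with different numbers were not compared, so these values cannot show whether the numbers pair mice. Leaving out 1 library gave 0 to 12 genes for BCI-838 (12 without control replicate 1), 0 to 18 for exercise (18 without the same library), 0 to 17 for both against control (17 without replicate 2 of both), 0 to 2 for both against BCI-838, 2 to 5 for the pooled genotype contrast, and 0 to 400 for both against exercise (400 without exercise replicate 3, 82 without replicate 2 of both, and 9 without exercise replicate 4). The causes were not tested. Low counts limit Lcn2 and Steap4, and groups of 4 or 5 limit every difference.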
